A study of Mus musculus with 3 samples.

Results

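Toll-like receptors are the germline-encoded sensors through which mast cells and other innate cells detect microbial lipids, proteins and nucleic acids. The 10 genes of that system described here in skin mast cells of mice are the receptors Tlr1, Tlr2, Tlr3, Tlr4, Tlr6, Tlr7, Tlr9 and Tlr13, the lipopolysaccharide co-receptor Cd14 and the adaptor Myd88. They were taken by gene symbol from a table of 20677 genes, 17613 of them with a symbol, and all 10 were found.

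RNA was sequenced from EYFP-labelled skin mast cells sorted 1 week after birth from mice of mixed C57BL/6xCD1xFVB background, in 3 libraries of 1 group each. For the early EMP library (early erythro-myeloid progenitor), Csf1rCre/EYFP mice had been pulsed with 4’OHT (4-hydroxytamoxifen, which activates the inducible Cre) at embryonic day 8.5. The late EMP library came from Runx1Cre/EYFP mice pulsed at day 8.5, and the fetal HSC library (fetal haematopoietic stem cell) from Runx1Cre/EYFP mice pulsed at day 9.5. The cells of every library thus carried a reporter switched on by a Cre under a haematopoietic promoter, and since that promoter is Csf1r for early EMP and Runx1 for the others, driver line and origin cannot be told apart there. The sources used here do not state how many animals gave each library. Because each origin is a single library, none of the differences below could be checked against replicates or tested.

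Receptors at the cell surface (Tlr1, Tlr2, Tlr4 and Tlr6) bind microbial lipids, and those in endosomes (Tlr3, Tlr7, Tlr9 and, in mice, Tlr13) bind nucleic acids. Nearly all of them signal through Myd88, which recruits Irak kinases and Traf6 to activate NF-kB and MAP kinases; Tlr3 uses the adaptor Ticam1, and Tlr4 uses both. Myd88 also serves the receptors for interleukin-1, interleukin-18 and interleukin-33, the last of which (Il1rl1) is a defining receptor of mast cells.

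Levels are FPKM, fragment numbers divided by transcript length and by sequencing depth. Runs of 3 values always go from early EMP through late EMP to fetal HSC. The spacing of low values implied depths of 15.2, 15.6 and 17.2 M fragments from early EMP through late EMP to fetal HSC cells. From these, each level was converted to an approximate number of fragments with an exact 95% Poisson interval, which covers counting error only. The mast cell label held: all 8 mast cell markers were at 1 FPKM or more in every library, and their levels summed to 211950, 178977 and 214507 FPKM.

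Of the receptors, Tlr6 and Tlr1 lie beside each other on chromosome 5 and had opposite orders across the libraries. The sequences that matter for reading their levels come first. Their transcripts are near-identical over part of the coding sequence, where a fragment cannot be assigned to either gene by sequence. The longest identical run is 229 bases, coding bases 1507 to 1735 of Tlr6 and 1468 to 1696 of Tlr1, from the GENCODE transcripts of GRCm38. It is shown whole, in lower case with no base set apart.
Tlr6 and Tlr1, shared coding run: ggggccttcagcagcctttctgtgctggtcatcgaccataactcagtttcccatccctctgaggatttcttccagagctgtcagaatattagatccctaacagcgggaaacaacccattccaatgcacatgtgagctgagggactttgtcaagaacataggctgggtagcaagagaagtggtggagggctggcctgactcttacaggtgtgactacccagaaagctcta
In all, 12.5% of the 50-base windows of the Tlr6 transcript and 16.6% of those of the Tlr1 transcript occur unchanged in the other, and none of either occurs in the Tlr2 transcript. Most of each transcript can therefore be told from the other at that length. Read length was not stated in the sources used here.

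RefSeq promoter windows (GRCm38.p6) were found for 7 of the 10 genes. Shown are the windows of the adaptor, the most abundant of the genes, and of Tlr9, one of the scarcest receptors. Each runs 250 bases up to the listed start. Capitals mark matches to any of 5 short motifs, searched on both strands, of which none overlaps another in these windows. The kappaB motif was searched by part of its site, GGGANTT. The ETS-family factor PU.1 of myeloid cells was searched as GAGGAA. For the GATA factors, which mast cells depend on, the letters were AGATAA. The AP-1 motif was TGANTCA in this search. An E-box was counted where the letters CAGCTG occurred.
Myd88, chr9:119340019-119340268, minus strand: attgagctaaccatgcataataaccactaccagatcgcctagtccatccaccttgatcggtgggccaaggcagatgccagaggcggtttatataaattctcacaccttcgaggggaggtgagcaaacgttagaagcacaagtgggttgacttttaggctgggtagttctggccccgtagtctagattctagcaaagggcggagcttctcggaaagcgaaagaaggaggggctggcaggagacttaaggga
Tlr9, chr9:106222348-106222597, plus strand: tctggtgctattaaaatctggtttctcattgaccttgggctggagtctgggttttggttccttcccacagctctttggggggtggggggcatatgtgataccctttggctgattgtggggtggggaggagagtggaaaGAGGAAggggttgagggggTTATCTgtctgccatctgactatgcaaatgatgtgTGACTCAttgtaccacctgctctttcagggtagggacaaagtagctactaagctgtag
The Tlr9 window held 1 PU.1 match, 1 AP-1 match and, on the other strand, 1 GATA match, while the Myd88 window held none of the 5. Of all 32851 such windows, 23.3% hold the PU.1 letters, 6.75% those of AP-1 and 9.99% those of GATA. These are letter matches and describe the windows only.

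Myd88 was by far the most abundant of the 10 genes in each library. This adaptor (chromosome 9, 119335934 to 119340018, GRCm38.p6) was at 38.8 FPKM in early EMP cells, 32.3 in late EMP cells and 27.6 in fetal HSC cells. Those levels stood on about 1081, 911 and 858 fragments, and lay above 90.6%, 88.5% and 87.2% of genes with a symbol. Converted back to FPKM, which allows for depth, the intervals were 36.5 to 41.1, 30.2 to 34.4 and 25.7 to 29.5. None of these overlapped another on the deposited scale, which the intervals take as fixed. The log2 differences, taken here and below as log2((FPKM + 1)/(FPKM + 1)), were -0.26 for late over early EMP, -0.48 when fetal HSC was set over early EMP and -0.22 over late EMP, all under 2-fold. With libraries rescaled by median-of-ratios size factors, the last shrank to -0.09, so the gap between fetal HSC and late EMP depends on the scaling.

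The receptors themselves were scarce. The 8 member receptors summed to 6.98 FPKM in early EMP cells, 4.88 in late EMP cells and 4.31 in fetal HSC cells, several-fold below Myd88 alone. Of all 10 genes, 3 reached 1 FPKM in early EMP cells, 2 in late EMP cells and 5 in fetal HSC cells, and only Myd88 reached 5 FPKM in any of the 3. No member was listed at 0 in early EMP cells, 2 were in late EMP cells and 3 in fetal HSC cells.

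**Figure D1:**
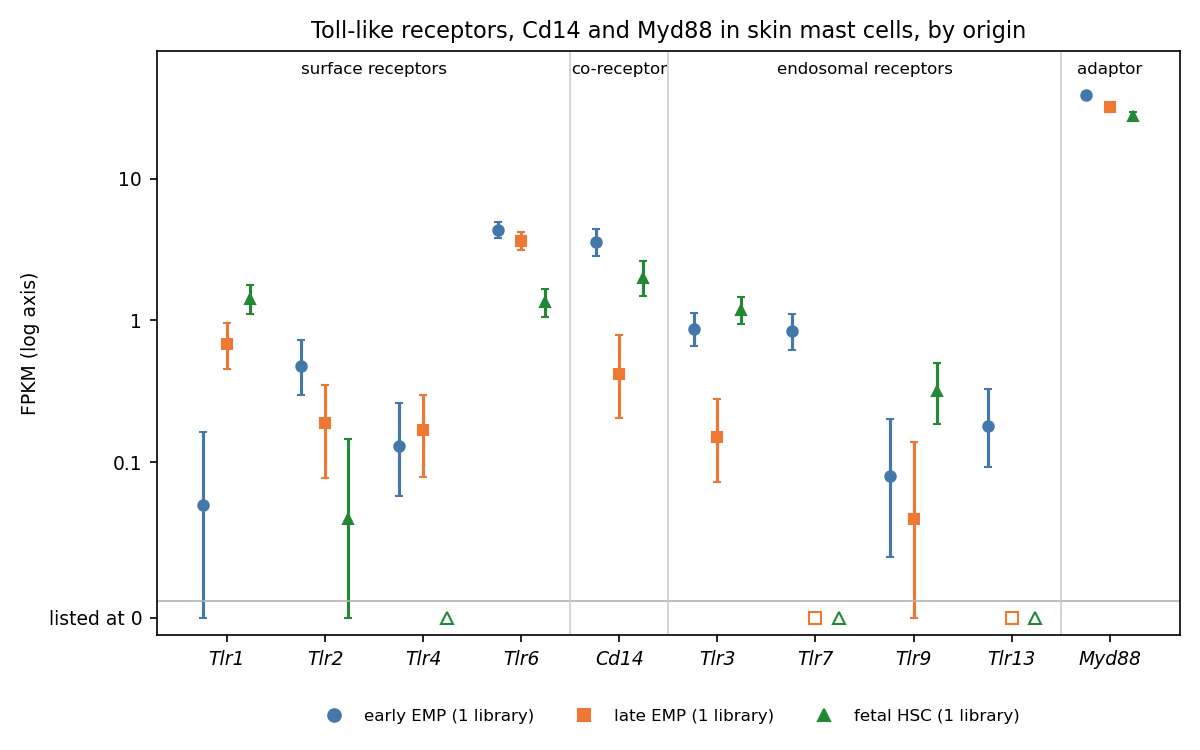
FPKM of each of the 10 genes (log axis) in the 3 libraries, 1 point per library, grouped by role. Bars are 95% Poisson intervals of the implied fragments, cut at the bottom level, below the grey line, where they run lower, and open symbols are values listed at 0; Myd88 lies between 27.6 and 38.8 FPKM, while no receptor exceeds 4.35.

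Among the 4 surface receptors of the 10 genes, Tlr6 led in both EMP libraries, and Tlr1 and Tlr6 lay close together in fetal HSC cells. Tlr6, which pairs with Tlr2 to bind diacylated lipopeptides, was at 4.35 FPKM in early EMP cells, 3.65 in late EMP cells and 1.34 in fetal HSC cells, or about 235, 201 and 81 fragments. Its fetal HSC interval of 64.3 to 100.7 fragments lay below those of the other libraries, 206 to 267 and 174 to 231. Tlr6 was thus lower by 2-fold or more in fetal HSC than in early EMP (log2 -1.19) and just under 2-fold lower than in late EMP (log2 -0.99).

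Tlr1, which pairs with Tlr2 to bind triacylated lipopeptides, ran the other way. It was at 0.05 FPKM in early EMP cells, 0.68 in late EMP cells and 1.42 in fetal HSC cells, or about 2, 30 and 70 fragments, with intervals of 0.24 to 7.22, 20.2 to 42.8 and 54.6 to 88.4 that did not overlap. Its log2 difference was 1.20 for fetal HSC over early EMP, 0.53 over late EMP, and 0.68 for late over early EMP. The order of the pair therefore changed between libraries, from Tlr6 far above Tlr1 in early EMP cells to nearly equal levels in fetal HSC cells, where the intervals of 64.3 to 100.7 and 54.6 to 88.4 fragments overlapped. Tlr6 and Tlr1 together summed to 4.40, 4.33 and 2.76 FPKM. How far fragments of the shared coding run moved between the 2 genes was not tested.

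Tlr2, the partner that both of them need, was lower than Tlr6 in all 3 libraries. It was at 0.48 FPKM in early EMP cells, 0.19 in late EMP cells and 0.04 in fetal HSC cells, about 21, 8 and 2 fragments. The intervals of 13.0 to 32.1 and 0.24 to 7.22 fragments in the early EMP and fetal HSC libraries lay apart, and that of the late EMP library, 3.45 to 15.8, overlapped both.

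Lipopolysaccharide sensing had abundant MD-2 but little receptor. Tlr4, the signalling receptor (chromosome 4, 66827551 to 66846581), was at 0.13 FPKM in early EMP cells and 0.17 in late EMP cells, about 8 and 10 fragments, and was listed at 0 in fetal HSC cells. The intervals of the EMP libraries, 3.45 to 15.8 and 4.80 to 18.4 fragments, overlapped almost wholly. Ly96, which encodes MD-2, the lipid-binding partner of Tlr4, measured 27.4, 38.9 and 28.3 FPKM from early EMP through late EMP to fetal HSC cells. Lbp, which delivers lipopolysaccharide in serum, was at 0.54 FPKM or less.

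Cd14, which hands lipopolysaccharide to Tlr4 and MD-2, was lowest in late EMP cells. It lies on chromosome 18 and was at 3.55 FPKM in early EMP cells, 0.42 in late EMP cells and 1.98 in fetal HSC cells. About 82, 10 and 51 fragments stood behind these values, and the late EMP interval of 4.80 to 18.4 lay below those of the early EMP library, 65.2 to 101.8, and the fetal HSC library, 38.0 to 67.1. Cd14 passed 2-fold in the comparison of late with early EMP (log2 -1.68) and of fetal HSC with late EMP (log2 1.07), while fetal HSC over early EMP was at -0.61.

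Tlr3, the endosomal sensor of double-stranded RNA (chromosome 8), was, like Cd14, lowest in late EMP cells, with the fetal HSC library highest. It was at 0.87 FPKM in early EMP cells, 0.15 in late EMP cells and 1.19 in fetal HSC cells, or about 57, 10 and 87 fragments. The intervals of 43.2 to 73.9 and 69.7 to 107 in the early EMP and fetal HSC libraries overlapped, and the late EMP interval of 4.80 to 18.4 lay below both. On the log2 scale it was -0.70 for late over early EMP and 0.93 for fetal HSC over late EMP, both under 2-fold with 1 FPKM added, which shrinks the difference of so low a gene. Its adaptor Ticam1 was at 2.71, 4.41 and 3.47 FPKM from early EMP through late EMP to fetal HSC cells.

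Tlr7, Tlr9 and Tlr13 signal through Myd88 from endosomes. Tlr7, which binds single-stranded RNA, was at 0.84 FPKM (about 48 fragments, interval 35.4 to 63.6) in early EMP cells and listed at 0 in both others. Tlr13, which in mice binds bacterial ribosomal RNA, was at 0.18 FPKM (about 11 fragments, interval 5.49 to 19.7) in early EMP cells and likewise listed at 0 in both others. A value of 0 in an estimated table can be a failed estimate, so no fold is given. Both genes lie on the X chromosome, as does Tlr8, which was at 0.22, 0.03 and 0 FPKM. Xist, the RNA of the inactive X, was at 25.6, 0.53 and 52.0 FPKM in the same order of libraries, and the Y-linked Ddx3y at 20.7, 38.5 and 0.32. These sex-linked RNAs thus differed between the libraries along with origin. The part of the animals' sex in the levels of these receptors, or of any other gene described here, was not tested.

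Tlr9, the sensor of unmethylated CpG DNA (chromosome 9), was at 0.08 FPKM in early EMP cells, 0.04 in late EMP cells and 0.32 in fetal HSC cells, about 4, 2 and 18 fragments. Converted back to FPKM, the fetal HSC interval of 0.19 to 0.50 lay above that of the late EMP library, 0.0047 to 0.14. It overlapped that of the early EMP library, 0.02 to 0.20. The 4 endosomal member receptors summed to 1.97, 0.19 and 1.51 FPKM, lowest in late EMP cells. In the early EMP library Tlr3 and Tlr7 made up most of that sum, and in fetal HSC cells Tlr3 and Tlr9 made up all of it.

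The other Toll-like receptors in the table were as scarce. Tlr5, which binds flagellin, was at 1.15, 0.93 and 1.99 FPKM from early EMP through late EMP to fetal HSC cells. Tlr11 and Tlr12, which in mice bind a profilin of protozoan parasites, were both highest in fetal HSC cells, at 0.17, 0.02 and 0.72 FPKM and at 0, 0.30 and 0.60 FPKM. All 12 receptors together summed to 8.52, 6.16 and 7.62 FPKM.

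Measured by the 2-fold level with a filter of 1 FPKM in at least 1 library, 5 of the 10 members could be counted: Myd88, Tlr6, Cd14, Tlr3 and Tlr1. For late over early EMP, 1 of the 5 was lower (Cd14) and none higher, against 4.24% of 11529 genes with a symbol lower and 7.55% higher, or 11.8% in either direction. For fetal HSC over early EMP, 1 was higher (Tlr1) and 1 lower (Tlr6), against 8.08% and 8.59% of genes, or 16.7% in either direction. For fetal HSC over late EMP, 1 was higher (Cd14) and none lower, against 2.71% and 5.35%, or 8.07% in either direction. With the regions of no symbol included the shares in either direction were 19.4%, 26% and 11.7%. The medians of the 5 were -0.26, -0.48 and 0.53, beside 0.06, -0.03 and -0.08 over all genes with a symbol. A count of 1 or 2 among 5 genes is too small to read against these shares, and Tlr1 and Tlr3 passed the filter only through the fetal HSC library. The comparisons with early EMP share that library, and any pair of comparisons shares a library.

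**Figure D2:**
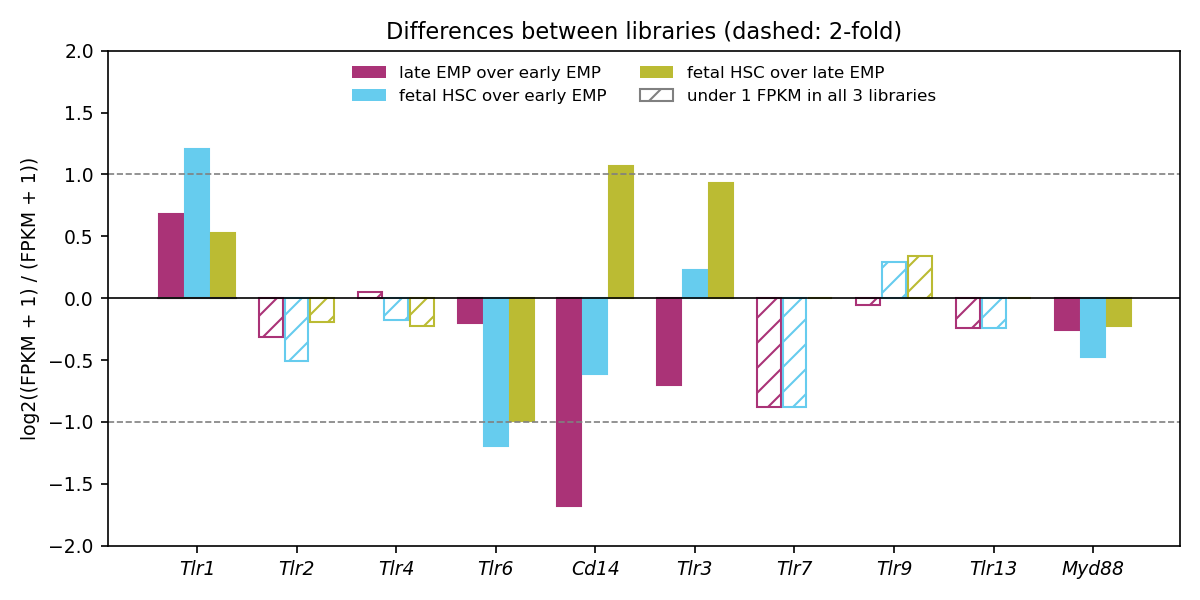
Log2((FPKM + 1)/(FPKM + 1)) of each of the 10 genes in the 3 comparisons, each between 2 single libraries, with dashed lines at 2-fold and hatched bars for genes under 1 FPKM everywhere. Cd14 passes the line in 2 comparisons and Tlr1 and Tlr6 in opposite directions for fetal HSC over early EMP, where Myd88 is at -0.48. Bars of Tlr4, Tlr7 and Tlr13 rest in part on values listed at 0, which can be failed estimates.

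Genes whose pattern over the 3 libraries was nearest to a member were found by the distance between centred log2(FPKM + 1) values. For Tlr1 these were Sec24a (8.54, 14.2 and 21.2 FPKM from early EMP through late EMP to fetal HSC cells), Gemin6 and Prelid2, at distances of 0.0149, 0.0199 and 0.0228. For Tlr6 they were Spryd3 (12.4, 10.4 and 4.90 FPKM), Gne and Prdm4, at 0.0352, 0.0387 and 0.0389. Nearest to Cd14 was Pde1b (9.82, 2.28 and 6.19 FPKM), followed by Phf11b and Gpc4, at 0.0453, 0.0954 and 0.136. With 3 points per gene, close likeness is easily met.

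Markers of cells rich in Toll-like receptors were read in each library. In bulk RNA, fewer cells of a type and less RNA per cell cannot be told apart. The 13 macrophage and monocyte markers summed to 118, 104 and 95.6 FPKM from early EMP through late EMP to fetal HSC cells, with 0, 0 and 2 of them listed at 0. They did not move as a block. Lyz2, the most abundant, was at 37.65, 39.78 and 44.81 FPKM. C1qa was at 14.8, 12.2 and 3.05 FPKM, C1qb at 20.4, 13.3 and 3.96 and Csf1r at 5.70, 2.54 and 1.47, the order of Tlr2 and Tlr6. C1qc, at 17.1, 16.0 and 3.68 FPKM, and Mrc1, at 3.01, 2.13 and 1.01, had that order too. Cd68 was at 17.8, 6.44 and 9.70 FPKM, the order of Cd14, while Adgre1, at 0.50, 2.18 and 0.04, and Cd163, at 0.02, 1.57 and 0.24, peaked in late EMP cells. Mertk was at 0.34, 0.04 and 0 FPKM and Fcgr1 at 0.35, 0.08 and 0. Ly6c2, a monocyte marker, ran the other way at 0.18, 2.65 and 20.9 FPKM, as did Ccr2 at 0.11, 5.56 and 6.66. The order of Ly6c2 and Ccr2 was that of Tlr1.

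The dendritic cell markers, 6 of 7 measured, summed to 0.21, 2.04 and 7.90 FPKM, with 3, 1 and 1 of them listed at 0. Flt3 was at 0.07, 0.59 and 3.16 FPKM and Xcr1 at 0.03, 0.52 and 2.96, the 2 that passed the filter, and both were highest in fetal HSC cells, as were Tlr9, Tlr11 and Tlr12. Itgax was at 0.72 FPKM in fetal HSC cells and 0 elsewhere, and Clec9a at 0, 0.23 and 0.44. Zbtb46, at 0.11, 0.67 and 0.62 FPKM, and Siglech, at 0, 0.03 and 0, were not higher in fetal HSC than in late EMP cells. Of the neutrophil list, 4 of 7 were measured, and S100a8 was at 1.30, 0 and 28.9 FPKM. Ly6g, at 0.42, 0 and 0 FPKM, was instead highest in early EMP cells. Csf3r stayed at 0.26 FPKM or less and Ltf at 0.02 or less. Of the B cell markers, Cd79b was at 11.5, 9.34 and 16.5 FPKM, Cd79a at 0.05, 0 and 1.88 and Ms4a1 at 0.54, 0 and 0. The 3 basophil markers summed to 2785, 910 and 1712 FPKM, an order set by Prss34 at 2386, 459 and 989. Cd200r3, at 385, 434 and 687 FPKM, and Mcpt8, at 14.5, 17.4 and 35.9, were highest in fetal HSC cells. The part of any of these cells in the levels of the receptors was not tested.

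Fibroblast and keratinocyte markers summed to 3.73 FPKM or less. The endothelial markers summed to 6.31, 7.24 and 4.66 FPKM, on the scale of the member receptors together. Nearly all of that was Pecam1, with Cdh5 at 0.02, 0 and 0 FPKM. The T cell markers summed to 15.3, 5.52 and 13.0 FPKM. Of these, Cd3e was at 13.5, 0 and 0.63 FPKM and Cd3g, the other way, at 1.55, 5.36 and 12.02, while Cd3d stayed at 0.39 or less.

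RNAs of the accessory and trafficking list, which holds proteins that fold, carry or cut the receptors, ranged from 0 to 311 FPKM. Hmgb1 had the top value, and several genes were far above any receptor. Of 15 measured accessory and trafficking genes past the filter, none was 2-fold apart for late over early EMP, 1 was higher and 2 lower for fetal HSC over early EMP, and 2 were higher and 1 lower for fetal HSC over late EMP. Beside them, 11.8%, 16.7% and 8.07% of all genes with a symbol passed 2-fold in either direction, and 15 genes are too few to stand out. Medians were -0.09, -0.13 and -0.16. Unc93b1, which escorts nucleic acid receptors to endosomes, was at 14.6 FPKM in early EMP cells, 7.05 in late EMP cells and 5.50 in fetal HSC cells (log2 -1.26 for fetal HSC over early EMP). Lgmn, a legumain that cuts endosomal receptors into their active form, was at 19.2, 10.8 and 3.81 FPKM (log2 -2.07). Both were thus highest where Tlr7 and Tlr13 had values above 0. In the other direction, Ctss, a cathepsin with a like role, was at 11.3, 8.88 and 20.7 FPKM, and Ly86, the partner of the receptor-like Cd180, at 2.29, 3.86 and 9.44. Hsp90b1, the chaperone that folds most Toll-like receptors, was at 77.2, 138 and 143 FPKM, and Hmgb1, a nuclear protein that can act as a danger signal when released, at 223, 241 and 311.

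Few genes of the complex that forms on Myd88 were 2-fold apart, though against 11.8%, 16.7% and 8.07% of all genes in the 3 comparisons the list is too short for a low count to stand out. Of 16 adaptor and kinase genes past the filter, all lay within 2-fold for late over early EMP and between fetal HSC and late EMP, and 1 was lower for fetal HSC over early EMP. The medians were 0.07, 0.19 and 0.11. The lower gene was Tab1, a subunit of the Tak1 kinase complex, at 13.3, 7.60 and 3.75 FPKM from early EMP through late EMP to fetal HSC cells (log2 -1.59). Irak4, the kinase that Myd88 recruits first, was at 11.1, 11.6 and 6.51 FPKM and Traf6, the ubiquitin ligase below it, at 8.04, 5.89 and 6.98. Tirap, the bridge from Tlr2 and Tlr4 to Myd88, was at 3.67, 2.34 and 2.37 FPKM. Peli1, another ubiquitin ligase of the pathway, was at 34.4, 38.4 and 61.0 FPKM, Ube2n at 35.3, 49.2 and 61.2, Ube2v1 at 109, 106 and 128, and Ripk1 at 6.72, 13.5 and 7.94. Irak4, Traf6, Tirap, Ly96, Lbp, Ticam1 and the Toll-like receptors beyond the 10 genes fall outside the naming rule and were chosen after their values were seen.

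Among the receptors that use Myd88, Il1rl1 exceeded every Toll-like receptor by far. This interleukin-33 receptor was at 472 FPKM in early EMP cells, 380 in late EMP cells and 268 in fetal HSC cells, the order of Myd88 itself, with log2 differences of -0.31 for late over early EMP, and -0.81 and -0.50 for fetal HSC over early and over late EMP. Its co-receptor Il1rap had the opposite order, at 1.14, 3.65 and 5.35 FPKM (log2 1.12 and 1.57 over early EMP). Il18r1, a chain of the interleukin-18 receptor, was at 11.0, 7.66 and 4.67 FPKM. Of the 5 that passed the filter, 1 was higher and none lower for late over early EMP. For fetal HSC, 2 were higher and 1 lower over early EMP, and none passed 2-fold over late EMP. Shares of all genes with a symbol in either direction were 11.8%, 16.7% and 8.07%, and 5 genes are too few to read against them. Il18rap, 1 of the higher genes at 0.61, 1.83 and 2.71 FPKM, passed the filter only through the libraries where it was high.

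**Figure D3:**
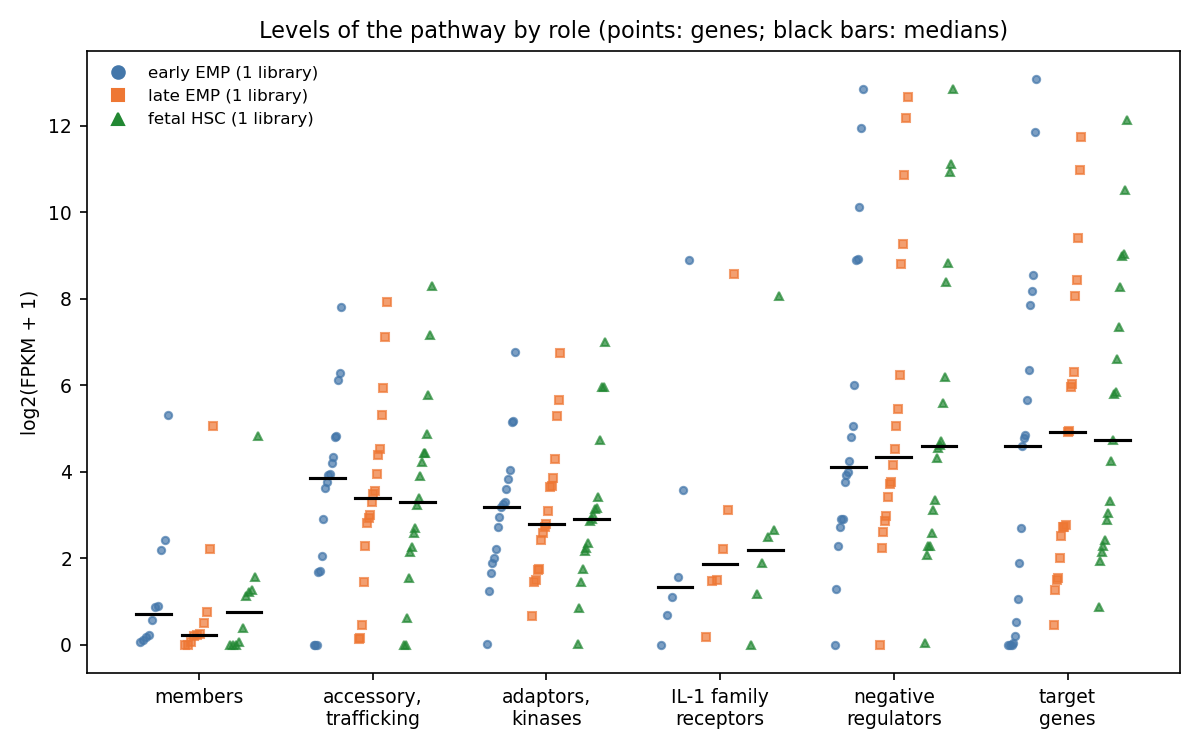
Log2(FPKM + 1) of the 10 members and of 5 lists of the pathway in the 3 libraries, 1 point per gene and black bars at the median of each list. The members other than Myd88 lie at the bottom of the scale, and the single high point among the interleukin-1 family receptors is Il1rl1 at 268 to 472 FPKM.

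Downstream kinases and transcription factors gave counts to be read against 11.8%, 16.7% and 8.07% of all genes with a symbol in either direction. Of 20, 1 was higher for late over early EMP and 2 for each comparison of fetal HSC, and none was lower, with medians of 0.26, 0.30 and 0.03. Irf8 was higher in every comparison, joined in those of fetal HSC by Map3k8, at 0.14, 0.25 and 2.62 FPKM. Both were under 1 FPKM in early EMP cells and passed the filter only through libraries where they were high. These counts are therefore descriptions only. Irf8, an interferon regulatory factor of monocytes and dendritic cells, was at 0.21, 2.18 and 11.5 FPKM from early EMP through late EMP to fetal HSC cells. That is the order of Tlr1, Flt3 and Ly6c2. Nfkb1, an NF-kB subunit, was at 45.6, 77.0 and 81.7 FPKM, Rel at 18.5, 27.4 and 35.0, and Ikbke, a kinase of interferon induction, at 4.02, 7.77 and 8.94. Irf1 was at 25.1, 24.2 and 13.3 FPKM, and the MAP kinase kinase Map2k3 at 62.0, 95.2 and 98.6.

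Negative regulators had medians of 0.24, -0.01 and -0.03 over 17 genes, of which 1, 2 and 1 were higher in the 3 comparisons and 0, 0 and 1 lower. Among all genes with a symbol, 11.8%, 16.7% and 8.07% passed 2-fold in either direction, and 17 genes are too few to read against that. Irak3, which blocks Irak signalling, was at 1.45, 5.09 and 4.96 FPKM from early EMP through late EMP to fetal HSC cells. Atf3, a repressor of cytokine genes, was at 6.55, 9.66 and 25.1 FPKM. The phosphatase Dusp1 was at 7374, 6472 and 7343 FPKM, Zfp36, which destabilises cytokine mRNA, at 3934, 4656 and 2227, and Nfkbid at 485, 616 and 337.

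Of the genes that Toll-like receptor signalling is known to induce, most that passed 2-fold were higher in the first-named library of a comparison. Of 18 measured past the filter, 7 were higher and 1 lower for late over early EMP, and 9 were higher and 1 lower for fetal HSC over early EMP. For fetal HSC over late EMP, 3 were higher and none lower. Beside them, 7.55%, 8.08% and 2.71% of all genes with a symbol were higher by 2-fold in the 3 comparisons. In either direction the shares were 11.8%, 16.7% and 8.07%. Medians were 0.71, 1.28 and 0.34, or 0.56, 0.82 and 0.37 over all 19 in the table. Cxcl2, Il1b, Ccl5, Ptgs2 and Cxcl1, which make 5 of the 7 and 5 of the 9, were under 1 FPKM in early EMP cells. They passed the filter only through the libraries where they were high, so these counts and the medians over 18 are descriptions only. Of these 5, Cxcl2, Il1b and Ccl5 were listed at 0 in early EMP cells, which can be a failed estimate. Cxcl2, a neutrophil chemokine, was listed at 0 in early EMP cells and at 4.74 and 6.40 FPKM in the late EMP and fetal HSC libraries, and Il1b, interleukin-1 beta, likewise at 0, 5.63 and 4.36. Csf2, which encodes GM-CSF, was at 26.5, 64.7 and 162 FPKM, and Cd83, a surface protein of activated cells, at 2.74, 5.82 and 17.9. The lower genes were the chemokines Ccl7, at 8661, 3406 and 4487 FPKM, and Ccl2, at 3702, 2013 and 1473. Tnf, chosen after its value was seen, was at 232, 343 and 309 FPKM, under 2-fold throughout. Il6, likewise chosen, was at 23.2, 78.3 and 96.1 FPKM, past 2-fold over early EMP in both comparisons (log2 1.71 and 2.01). These genes answer to many other signals, and the part of Toll-like receptors in their levels was not tested.

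**Figure D4:**
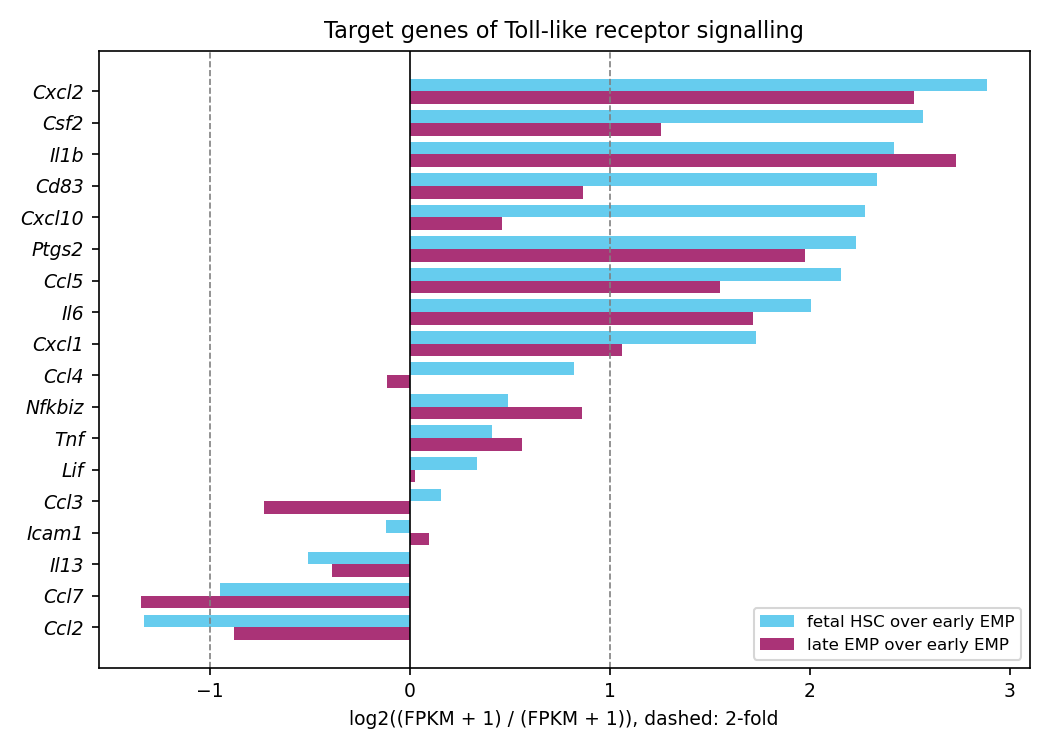
Log2((FPKM + 1)/(FPKM + 1)) of 18 target genes of Toll-like receptor signalling for late over early EMP and for fetal HSC over early EMP, which share the early EMP library, with dashed lines at 2-fold. For fetal HSC, 9 genes lie past the line to the right and Ccl2 to the left. Cxcl2, Il1b and Ccl5 were listed at 0 in early EMP cells.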

How the data were processed

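Sorted cells were lysed in TRIzol for total RNA, and a sequencing centre ran the libraries on an Illumina HiSeq, per the labels' protocols. In the single deposited table the authors give FPKM per gene, with 2 decimals, per the file headers. The submitters' processing notes list RSEM and Bowtie2, with builds GRCm38 and mm10, without versions. Because FPKM is a share, abundant genes move all others.

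Genes at 1 FPKM or more in at least 1 library were counted as higher or lower at 2-fold on log2((FPKM + 1)/(FPKM + 1)). No test was possible with 1 library per group. Depth was implied from the spacing of low values among genes listing 1 transcript (600 to 2500 bases, GENCODE lengths matched by RefSeq accession): 77.3%, 79.7% and 73.3% of them came within 0.15 of whole fragments. A step fixed beforehand would give 30% by chance, but the step and a length offset (125, 150 and 150 bases) were chosen to fit, so fragment numbers are approximate. They are less certain for Tlr1, Tlr3, Tlr6 and Tlr7, which list several transcripts. Coordinates are those of RefSeq for GRCm38.p6.

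Members and lists were chosen with earlier results of these data known. Named genes were all members and, per list, up to 4 with the largest difference and the 2 most abundant at 5 FPKM or more. Marker genes, nearest patterns, genes named for how they passed the filter and those said to be chosen otherwise were added. Of the marker genes, 1 is not reported here. The fold counts were checked on simulated data. Alternatives were other pseudocounts, filters and scalings. Software was matplotlib 3.10.9, scipy 1.17.1, pandas 2.3.3 and numpy 2.4.6 under Python 3.11.15.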

Additional observations from a re-analysis of the deposited data

How the results depend on the processing

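No paired analysis was possible because each group has 1 library, and leaving out a library would remove a group. The count of members past 2-fold depends on the pseudocount, since most members are near or under 1 FPKM. For late over early EMP it went from 1 to 3 with 0.1 FPKM added and to 0 with 5 FPKM added. For fetal HSC over late EMP it went from 1 to 3 and to 0 in the same way, and to 2 when libraries were rescaled to the same total, as Tlr6 then passed at -1.03. For fetal HSC over early EMP it went from 2 to 0 with 5 FPKM added. The filter at 5 FPKM left only Myd88, with 0 members past 2-fold in each comparison and a median of -0.22 for fetal HSC over late EMP against 0.53. Members counted as present numbered 5 in early EMP cells at a level of 0.5 FPKM against 3 at 1 FPKM, and 1 in each library at 5 FPKM. The other 43 values of these counts and medians kept within 1.5 times of the reported ones, medians being compared as linear folds; without a filter the median for fetal HSC over late EMP was 0 over all 10 members. The sign of a member difference past 2-fold could not change under these alternatives. Pseudocounts and filters keep the sign, and the scaling factors lay between 0.96 and 1.06. Median-of-ratios factors moved the median of all genes for fetal HSC over late EMP by 0.11 and the share of higher calls from 33.7% to 46.4%; relative to that, Cd14 stayed higher and Tlr6 lower. Depth limits Tlr4, Tlr9 and Tlr13, each on under 20 fragments in every library.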

Other observations

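Receptors of other families that sense microbes, with their adaptors, were read in the same way. Of 16 measured past the filter, 2 were at least 2-fold higher and 1 lower for late over early EMP, 3 higher and 3 lower for fetal HSC over early EMP, and none higher and 1 lower for fetal HSC over late EMP, with medians of 0.39, 0.32 and -0.22, beside 11.8%, 16.7% and 8.07% of all genes with a symbol in either direction. Naip5, Clec4e, Fpr2, Aim2 and Nod1 passed the filter only through the libraries where they were high. They include every gene past 2-fold for late over early EMP and for fetal HSC over late EMP. Clec4e, Fpr2 and Aim2 were each listed at 0 in at least 1 library, which can be a failed estimate. These counts and medians are therefore descriptions only. Tmem173, the cytosolic DNA adaptor STING, was at 39.2, 37.5 and 32.8 FPKM from early EMP through late EMP to fetal HSC cells, close to Myd88. Pycard, the inflammasome adaptor, was at 31.9, 38.1 and 38.3. Mb21d1, the DNA sensor cGAS that acts before STING, was at 1.76, 2.81 and 5.11 FPKM. Naip5, which senses flagellin in the cytosol of mouse cells, was at 0.38, 5.51 and 3.61 FPKM, while Tlr5, the receptor for extracellular flagellin, stayed between 0.93 and 1.99. Ddx58, the RNA sensor RIG-I, was at 3.46, 4.53 and 5.40 FPKM, and Ripk2, the kinase of the Nod receptors, at 3.69, 7.58 and 5.09.

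Clec4n, the lectin Dectin-2, was chosen after its values were seen. It was at 3.19, 1.10 and 0.06 FPKM in the same order, which is the order of Tlr2, C1qb and Csf1r. Nod1, likewise chosen, was at 1.90, 0.77 and 0.22 FPKM.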
